A study of Mus musculus with 9 samples.

Results

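The genes described here act at the outer end of Hedgehog signalling, in the making of the ligand and in its capture at the cell surface. They are the ligand gene Shh, the co-receptor genes Boc, Cdon, Gas1 and Lrp2, the acyltransferase gene Hhat and the release gene Disp1. They were chosen by name, 7 of the 47593 rows of a count table of mouse medulloblastomas, and all 7 were among the 18356 genes with enough counts to be tested. Their levels are given in each of 9 tumours, 3 labelled Cdk6+/+ and 6 labelled Cdk6-/-.

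Hedgehog ligands are made with a cholesterol and a palmitate attached. Hhat adds the palmitate, and Disp1, helped by secreted Scube proteins, frees the ligand from the membrane of the cell that made it. On the receiving cell Boc, Cdon and Gas1 bind the ligand together with the receptor Ptch1, which then stops holding back Smoothened, so that Gli transcription factors switch on target genes such as Gli1. In the cerebellum the Purkinje cells secrete Shh, and granule neuron progenitors divide in answer to it.

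All mice had the C57BL/6J background, the recombinase strain B6.Cg-Tg(Atoh1-cre)1Bfri/J and the targeted strain GT(ROSA)26Sortm1(Smo/EYFP)Amc/J, so controls and Cdk6-/- animals alike carried SmoM2, an activated Smoothened. Cre under the Atoh1 (Math1) promoter switches SmoM2 on in granule neuron progenitors, and SmoM2 signals without ligand, below the step at which the 7 genes act. Only the Cdk6 genotype, intact or deleted, differed between the groups in the labels, which name no age and no deleted exon. RNA came from whole flash-frozen tumours, so the levels are of all cells in a piece together, and fewer cells of a type and less RNA per cell cannot be told apart.

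The libraries held 21.4 to 56.8 x 1e6 counts, and every Cdk6+/+ library was deeper than every Cdk6-/- library. Tumour 5 of the Cdk6-/- group stood apart, with the proliferation marker Mki67 at 0.398 CPM (counts per 1e6 counts of the scaled library) against 711 to 1060 in the other 8. The progenitor factor Atoh1 was at 0.0442 CPM there and at 51.8 to 197 in the others, so this defining marker of granule neuron progenitors was present in 8 libraries and near 0 in 1. The GABA receptor gene Gabra6, which mature granule neurons express, was at 1050 CPM in tumour 5 and 931 in Cdk6-/- tumour 1, against 2.51 to 161 in the other 7. Results are therefore given with all 9 tumours and without Cdk6-/- tumours 1 and 5, a selection made with the data known. Xist, which marks an inactive X chromosome, was at 1580 to 2090 CPM in the Cdk6+/+ libraries, at 1760 in Cdk6-/- tumour 6 and at most 131 in the other 5. Ddx3y, on the Y chromosome, was at 57.6 to 145 CPM in Cdk6-/- tumours 2 to 5, 0.16 in tumour 1 and 0 in the remaining libraries. Sex by expression thus partly followed the genotype label. For Cdk6-/- tumour 1, with Xist at 131 CPM and little Ddx3y, it was unclear. Cdk6 itself was at 551 to 562 CPM in Cdk6+/+ and at 2.17 to 562 in Cdk6-/- libraries, which does not check the genotype, since the counts cover all exons.

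The promoters of Gas1, Hhat and Disp1 are shown because these genes stand for the 3 steps of capture, acylation and release, and because Gas1 and Hhat are, with Boc, the members whose level was higher in each of Cdk6-/- tumours 2, 3, 4 and 6 than in any Cdk6+/+ tumour. They are RefSeq entries on GRCm38.p6, all on the minus strand, each read 5' to 3' from 250 bases before the gene start, with the 50 bases from the start on in capitals. The windows are chr13:60177486-60177785 for Gas1, chr1:192771170-192771469 for Hhat and chr1:183221480-183221779 for Disp1. Their RefSeq starts lie 170, 4 and 7 bases from the starts in the deposited table.
Gas1: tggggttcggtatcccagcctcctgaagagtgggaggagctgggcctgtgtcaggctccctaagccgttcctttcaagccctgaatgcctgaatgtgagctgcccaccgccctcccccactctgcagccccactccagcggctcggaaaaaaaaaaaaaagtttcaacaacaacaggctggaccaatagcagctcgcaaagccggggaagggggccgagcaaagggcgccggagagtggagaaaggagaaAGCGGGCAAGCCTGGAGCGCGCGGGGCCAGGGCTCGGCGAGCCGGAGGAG
Hhat: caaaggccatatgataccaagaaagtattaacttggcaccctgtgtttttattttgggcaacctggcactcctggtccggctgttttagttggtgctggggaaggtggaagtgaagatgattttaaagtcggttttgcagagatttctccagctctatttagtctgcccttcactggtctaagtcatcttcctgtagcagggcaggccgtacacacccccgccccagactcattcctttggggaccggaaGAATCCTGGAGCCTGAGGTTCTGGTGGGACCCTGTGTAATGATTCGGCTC
Disp1: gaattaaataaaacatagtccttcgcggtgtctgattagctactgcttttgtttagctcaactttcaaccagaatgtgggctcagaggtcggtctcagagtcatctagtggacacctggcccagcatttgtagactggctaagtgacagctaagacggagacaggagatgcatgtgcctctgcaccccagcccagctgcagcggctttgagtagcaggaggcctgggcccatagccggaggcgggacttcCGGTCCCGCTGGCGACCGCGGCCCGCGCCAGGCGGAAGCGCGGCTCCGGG
The GC content of these windows was 62.3% for Gas1, 50.3% for Hhat and 58.7% for Disp1, against a median of 52.7% over 32851 mouse promoters of the same length. RefSeq entries were found for 5 of the 7 members, 6 in all, since Disp1 has a further start 73965 bases inside the gene. The 1 entry for Cdon also starts inside the gene, 30948 bases from its deposited start. Neither the Gli binding sequence GACCACCCA nor its inner part ACCACCC, searched on both strands, occurred in any of the 6, while 0.253% and 4.61% of all promoters hold them. The shorter motif lies within the longer one, and these letters missing from the windows say nothing about Gli binding elsewhere.

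Over all 9 tumours none of the 7 genes passed edgeR's quasi-likelihood test (adjusted p under 0.05), in which 5.19% of all tested genes were called. None had an unadjusted p under 0.05, in edgeR, limma-voom or DESeq2 (which gave no p for Shh), and the smallest in edgeR was 0.071, for Boc. In none of the 7 did the Cdk6-/- libraries lie fully on one side of the Cdk6+/+ libraries, where 15.5% of all tested genes did. Without Cdk6-/- tumours 1 and 5, 1 of 7 was called (Boc, higher in Cdk6-/-), against 14.3% of all genes called, 8.12% higher and 6.14% lower. In that comparison Boc, Gas1 and Hhat, 3 of 7, had every Cdk6-/- library above every Cdk6+/+ library, against 14.2% of all genes. The levels are plotted for every tumour.

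**Figure D1:**
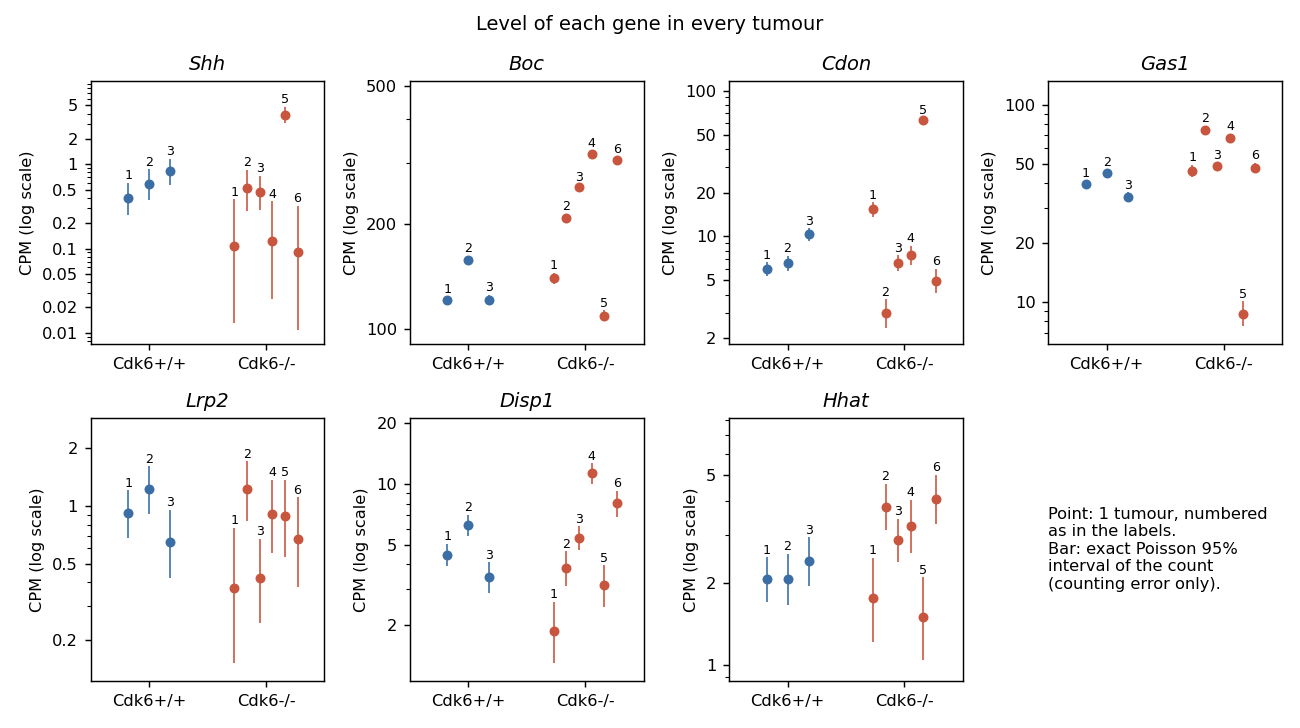
Level of Shh, Boc, Cdon, Gas1, Lrp2, Disp1 and Hhat in each tumour, in CPM on a log axis, with Cdk6+/+ tumours in blue and Cdk6-/- tumours in red, numbered as in the labels. Bars are exact Poisson 95% intervals of the counts and cover counting error only; Shh and Cdon are highest, and Gas1 lowest, in Cdk6-/- tumour 5.

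Compared per exon length, Boc was the most abundant of the 7 in every tumour. In transcripts per 1e6 (TPM, counts per exon length scaled to 1e6 in each library) it was at 96.0 ± 22.5 in Cdk6+/+ (SD, n = 3) and 185 ± 73.8 in Cdk6-/- tumours (SD, n = 6). Gas1 followed at 42.7 ± 8.63 and 61.2 ± 29 TPM, below Boc in all 9 tumours and the second highest in 8. Cdon was at 3.12 ± 0.881 and 7.77 ± 10.6 TPM and Disp1 at 2.91 ± 1.08 and 3.96 ± 2.46, levels that differed by less than their spread. Tumour by tumour, Disp1 was above Cdon in 6 of 9. Hhat was at 0.758 ± 0.0567 and 1.17 ± 0.441 TPM and Shh at 0.673 ± 0.232 and 1.11 ± 1.88, again within their spread, with Hhat above Shh in 7 of 9 tumours. Lrp2 was lowest in both group means, at 0.179 ± 0.0669 and 0.164 ± 0.0706 TPM, though Shh was below it in 2 of 9 tumours. Among all tested genes, the Cdk6+/+ mean of Boc lay at percentile 89.4 of TPM, that of Gas1 at 75.5, of Shh at 12.3 and of Lrp2 at 4.25.

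Shh, the ligand (chr5:28456815-28467256, minus strand), was barely counted outside 1 tumour, with 206 counts over the 9 libraries. In the Cdk6+/+ tumours 1, 2 and 3 it had 22, 24 and 32 counts, or 0.396, 0.586 and 0.83 CPM. In Cdk6-/- tumours 1 to 6 it had 2, 14, 19, 3, 88 and 2 counts, or 0.107, 0.516, 0.469, 0.124, 3.89 and 0.0897 CPM. Tumour 5 was above every other tumour, tumours 1, 4 and 6 were below every Cdk6+/+ tumour, and the groups overlapped. The level in tumour 5 (exact Poisson 95% interval 3.12 to 4.79) was 4.69 times the next highest and 13 times the mean of tumours 2, 3, 4 and 6. The group means were 0.604 ± 0.217 (SD, n = 3) and 0.866 ± 1.49 CPM (SD, n = 6), which gave a log2 fold change of 0.52 (standard error, SE, 1.12; edgeR adjusted p = 0.848). When tumours 1 and 5 were left out, the Cdk6-/- mean was 0.3 ± 0.224 CPM (SD, n = 4) and the log2 fold change had the opposite sign, -0.95 (SE 0.64, edgeR adjusted p = 0.335), as it did with only tumour 5 left out (-1.13). Of the exon bases of Shh 28.3% lie opposite the noncoding genes 9530036O11Rik and Gm26894, which had at most 21 counts in any library, and reads of the genes on the other strand cannot be told apart unless the counting used strand.

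The order of the tumours in Shh was close to their order in Purkinje cell transcripts. The summed CPM of a list of 10 Purkinje cell genes was 859, 1010 and 1710 in Cdk6+/+ tumours 1 to 3 and 146, 461, 550, 235, 10200 and 145 in Cdk6-/- tumours 1 to 6, with no gene of the list at 0 in any library. Cdk6-/- tumour 5 and Cdk6+/+ tumours 3 and 2 were the highest 3 in both measures, and Cdk6-/- tumours 4, 1 and 6 the lowest 3 in both. Per 1000 CPM of that list, Shh was between 0.381 and 1.12 CPM, a 2.94-fold range, where the range of Shh itself was 43.4-fold. In Cdk6-/- tumours 1, 4 and 6 this ratio rests on 2 or 3 counts of Shh. It also depends on the sum, since single genes of the list varied differently. Over the 9 tumours Foxp2 was at 18.5 to 94.3 CPM and Pcp2 at 0.0448 to 43.0 CPM. Among the list's genes Itpr1, a calcium channel of Purkinje cells, was at 5530 CPM in tumour 5. Tumour 5 also had the highest sum of the astrocyte and Bergmann glia list, 8310 CPM against 1580 to 3710, and its dividing cell list was at 5.79 CPM against 2090 to 3220, with 1 of 10 genes at 0. The part of these cell types in the level of Shh was not tested.

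**Figure D2:**
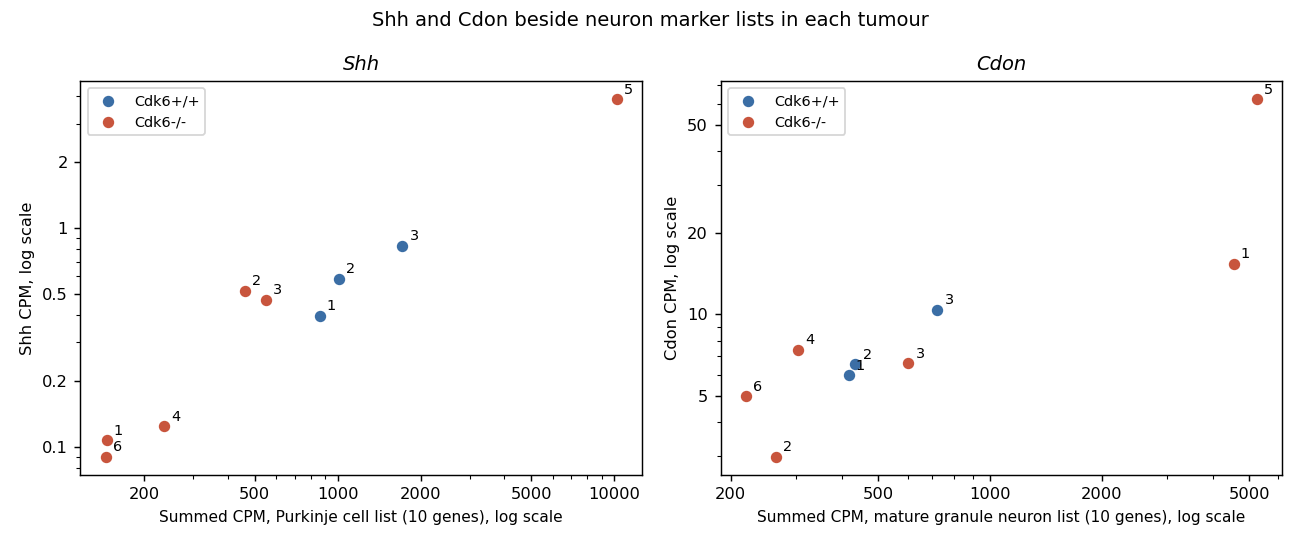
Left, Shh CPM against the summed CPM of 10 Purkinje cell genes; right, Cdon CPM against the summed CPM of 10 mature granule neuron genes; all axes are logarithmic and each point is 1 tumour with its number. Shh is highest in Cdk6-/- tumour 5 at a Purkinje sum of 10200 CPM and lowest in tumour 6 at 145; Cdon is highest in tumours 5 and 1, where the granule neuron sums are 5250 and 4540 CPM.

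The other Hedgehog ligand genes also had few counts. Ihh was at 0.104 to 0.27 CPM in Cdk6+/+ and 0.0535 to 1.03 in Cdk6-/- libraries, highest in tumour 4, and Dhh at 0 to 0.0976 and 0.0442 to 0.577 CPM. Neither passed the filter on low counts with all 9 libraries, and Ihh, tested without tumours 1 and 5, had a log2 fold change of 1.48 (edgeR adjusted p = 0.154). Both were therefore highest in another tumour than Shh.

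Boc, a transmembrane co-receptor of the immunoglobulin superfamily (chr16:44485045-44558897, minus strand), was higher in 4 of 6 Cdk6-/- tumours than in any Cdk6+/+ tumour. It was at 121, 158 and 121 CPM in Cdk6+/+ tumours 1 to 3 and at 140, 208, 255, 318, 109 and 305 CPM in Cdk6-/- tumours 1 to 6. Tumours 2, 3, 4 and 6 lay above all Cdk6+/+ libraries, tumour 1 within their range and tumour 5 below it. With 2466 or more counts in each library, counting error was small beside these differences. Over all 9 tumours the means were 134 ± 21.5 (SD, n = 3) and 222 ± 85.9 CPM (SD, n = 6), and the log2 fold change of 0.74 (SE 0.37) did not pass (edgeR adjusted p = 0.31).

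In the comparison without tumours 1 and 5 Boc rose 2.03-fold, to 271 ± 50.2 CPM (SD, n = 4). The log2 fold change was 1.03 with an SE of 0.21 (edgeR adjusted p = 0.0126). Leaving out 1 further tumour at a time gave 0.94 to 1.15, with adjusted p from 0.00525 to 0.078 in edgeR, and 5 of 7 such fits passed. The call was lost without Cdk6+/+ tumour 1 (adjusted p = 0.0766) or tumour 3 (adjusted p = 0.078), which leave 2 Cdk6+/+ libraries. Among the 4 libraries with Xist at 1580 CPM or more, Boc was at 305 in the 1 labelled Cdk6-/- and at 121 to 158 CPM in the 3 labelled Cdk6+/+, with 1 library on one side and hence no test.

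Some of the cell type lists also differed between these tumours. In Cdk6-/- tumours 2, 3, 4 and 6 the progenitor list summed to 3970 to 5020 CPM, above the 3290 to 3730 of the Cdk6+/+ tumours. The astrocyte list was lower there, 1580 to 2860 against 3350 to 3710 CPM, as were the Purkinje list, 145 to 550 against 859 to 1710, the microglia list, 349 to 439 against 600 to 693, and the oligodendrocyte list, 777 to 1460 against 1690 to 3220 CPM. No gene of these lists was at 0 in any library. In edgeR without tumours 1 and 5, of 10 genes in each list, 2 progenitor genes rose and 0 fell, 4 Purkinje, 4 astrocyte and 4 microglia genes fell and 0 rose, and 2 oligodendrocyte genes rose and 3 fell, beside 8.12% of all genes higher and 6.14% lower. One of the progenitor genes that rose, Atoh1, was among the markers by which tumours 1 and 5 were left out, so its call is not independent of that choice. The remaining lists overlapped between these groups. The dividing cell list was at 2090 to 3220 against 2570 to 3000 CPM, with 0 genes called higher and 1 lower. The mature granule neuron list was at 220 to 603 against 416 to 722 CPM, with 0 genes called higher and 2 lower (Gabra6 and Etv1). Gabra6 was among the markers by which tumours 1 and 5 were left out, so its call is not independent of that choice. The choroid plexus, meningeal fibroblast and endothelium lists overlapped too, with 0 genes called. Whether the level of Boc goes with the share of tumour cells in a piece was not tested.

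Cdon, a co-receptor closely related to Boc (chr9:35421128-35507652, plus strand), had another order of tumours. It was at 5.96, 6.54 and 10.4 CPM in Cdk6+/+ tumours 1 to 3 and at 15.4, 2.98, 6.60, 7.42, 62.4 and 4.98 CPM in Cdk6-/- tumours 1 to 6. Tumour 5 had 4.06 times the next highest level, tumour 1 was the next, and the remaining 4 lay within or below the Cdk6+/+ range, so the groups overlapped. The means were 7.62 ± 2.4 (SD, n = 3) and 16.6 ± 22.8 CPM (SD, n = 6), with a log2 fold change of 1.12 (SE 0.91, edgeR adjusted p = 0.548). It had the opposite sign, -0.47, without tumours 1 and 5 (SE 0.36, edgeR adjusted p = 0.404), and was -0.03 with only tumour 5 left out. The 2 tumours with most Cdon had the highest sums of the mature granule neuron list, 5250 CPM in tumour 5 and 4540 in tumour 1 against 220 to 722 in the other 7, with no gene of the list at 0. Per 1000 CPM of that list Cdon was at 3.38 in tumour 1, 11.9 in tumour 5 and 10.9 to 24.5 CPM in the other 7. The part of these cells in the level of Cdon was not tested.

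Gas1, a co-receptor held to the membrane by a lipid anchor (chr13:60174405-60177365, minus strand), was lowest where Cdon was highest. It was at 39.7, 44.9 and 34.1 CPM in Cdk6+/+ tumours 1 to 3 and at 46.3, 74.8, 48.9, 67.8, 8.76 and 47.9 CPM in Cdk6-/- tumours 1 to 6. In 5 of 6 Cdk6-/- tumours Gas1 was above all Cdk6+/+ levels, and tumour 5 had 25.7% of the lowest of the other 8. The means were 39.6 ± 5.43 (SD, n = 3) and 49.1 ± 23 CPM (SD, n = 6), with a log2 fold change of 0.31 (SE 0.5, edgeR adjusted p = 0.793). Without tumours 1 and 5 the mean was 59.8 ± 13.5 CPM (SD, n = 4), 1.51 times that of Cdk6+/+, and the log2 fold change of 0.6 (SE 0.22) did not pass (edgeR adjusted p = 0.0953). Cdk6-/- tumour 5 and Cdk6+/+ tumours 3 and 1 were the lowest 3 in Gas1 and also in the progenitor list, at 1230, 3290 and 3620 CPM. The part of the progenitors in the level of Gas1 was not tested.

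Boc, Gas1 and Cdon can stand in for one another in part, and Boc held the largest share of their sum in all 9 tumours. Of their summed TPM Boc held 65.7%, 68.9% and 67.9% in Cdk6+/+ tumours 1 to 3 and 64.0%, 64.6%, 76.7%, 74.9%, 68.9% and 80.3% in Cdk6-/- tumours 1 to 6. Gas1 held 28.7% to 32.4% in Cdk6+/+ and 19.0% to 34.9% in Cdk6-/- tumours other than tumour 5, where it held 8.33%. Cdon held 1.64% to 3.36% in Cdk6+/+ tumours and 0.535% to 4.07% in 5 Cdk6-/- tumours, but 22.8% in tumour 5. Tumour 5 was thus the 1 piece in which Cdon exceeded Gas1, while its Boc share was within the range of the others. The summed TPM was 127, 177 and 122 in Cdk6+/+ tumours and 170, 269, 298, 347, 127 and 312 in Cdk6-/- tumours 1 to 6, highest in the 4 tumours in which Boc was highest. Relative to the receptor Ptch1 the sum was 0.501 to 0.554 in Cdk6+/+ tumours and from 0.362, in Cdk6-/- tumour 5, to 1.16, in tumour 4. These shares and ratios are descriptions without a test.

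**Figure D3:**
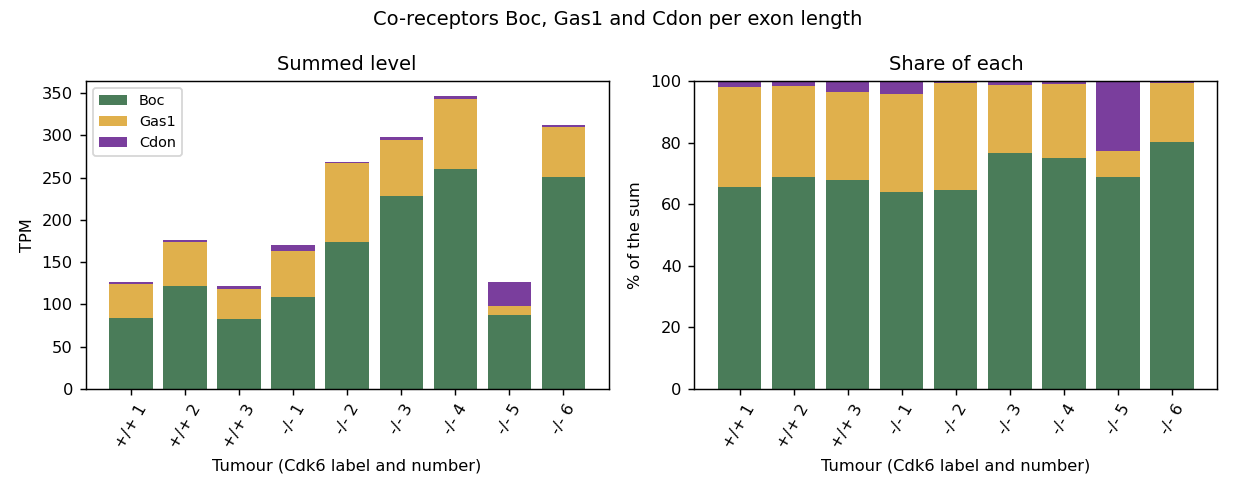
Summed TPM of Boc, Gas1 and Cdon in each tumour (left) and the share of each in that sum in percent (right); tumours are labelled by Cdk6 genotype and number. Boc makes up 64.0% to 80.3% of every bar, and Cdon 22.8% of that of Cdk6-/- tumour 5.

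Lrp2, or megalin, a large endocytic receptor that takes up Shh in the embryonic forebrain (chr2:69424340-69586065, minus strand), was close to the limit of counting. It had 51, 50 and 25 counts in Cdk6+/+ tumours 1 to 3 and 7, 33, 17, 22, 20 and 15 counts in Cdk6-/- tumours 1 to 6. Cdk6+/+ levels were 0.918, 1.22 and 0.648 CPM and Cdk6-/- levels 0.374, 1.22, 0.42, 0.907, 0.884 and 0.673 CPM, in overlapping ranges. The means were 0.929 ± 0.286 (SD, n = 3) and 0.746 ± 0.321 CPM (SD, n = 6), with a log2 fold change of -0.31 (SE 0.48, edgeR adjusted p = 0.775), and of -0.21 (SE 0.48, edgeR adjusted p = 0.784) without tumours 1 and 5. The choroid plexus is an epithelium known to make Lrp2. The choroid plexus gene Ttr was at 4.72 CPM in Cdk6+/+ tumour 3, at 0.0412 and 0.0448 in Cdk6-/- tumours 4 and 6 and at 331 to 1210 CPM in the other 6. The 3 highest levels of Lrp2 were in Cdk6+/+ tumours 1 and 2 and Cdk6-/- tumour 2, where Ttr was at 408, 331 and 512 CPM, and the 2 lowest were in Cdk6-/- tumours 1 and 3, where Ttr was at 333 and 1210 CPM. In the choroid plexus list 1 of 10 genes was at 0 in tumour 4 and 2 in tumour 6, the list summed to 118 to 570 CPM in Cdk6+/+ and 41.3 to 1390 in Cdk6-/- tumours, and its part in the level of Lrp2 was not tested. Of the genes that work with Lrp2 (Lrpap1, its chaperone, and the partners Cubn, Dab2 and Gipc1), 0 of 4 were called in either comparison. Of all tested genes 5.19% and 14.3% were called, so a count of 0 among so few says little. Median log2 fold changes of the 4 were 0.04 and 0.03, against 0.16 and 0.04 over all tested genes.

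Hhat, the acyltransferase (chr1:192496711-192771223, minus strand), was low and even in the Cdk6+/+ tumours, at 2.07, 2.07 and 2.41 CPM. Cdk6-/- tumours 1 to 6 had 1.77, 3.83, 2.89, 3.26, 1.5 and 4.08 CPM. Tumours 1 and 5 lay below and the other 4 above all Cdk6+/+ tumours, the same split as for Boc except that tumour 1 was low. The means were 2.19 ± 0.196 (SD, n = 3) and 2.89 ± 1.06 CPM (SD, n = 6), and the log2 fold change of 0.4 (SE 0.41) did not pass (edgeR adjusted p = 0.645). Without tumours 1 and 5 the mean was 3.52 ± 0.541 CPM (SD, n = 4), 1.61 times that of Cdk6+/+, with a log2 fold change of 0.69 (SE 0.3, edgeR adjusted p = 0.155). Hhat is the 1 member with sequence in other genes, 1.07% of its 50-base sequences.

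Disp1, which exports the cholesterol-bearing ligand (chr1:183086266-183221522, minus strand), varied 6.01-fold over the 9 tumours. It was at 4.47, 6.25 and 3.45 CPM in Cdk6+/+ tumours 1 to 3 and at 1.87, 3.83, 5.41, 11.3, 3.14 and 8.03 CPM in Cdk6-/- tumours 1 to 6. Tumours 4 and 6, also the highest in Boc, were above all Cdk6+/+ tumours, tumours 1 and 5 were below them, and the groups overlapped with and without these. The means were 4.72 ± 1.42 (SD, n = 3) and 5.59 ± 3.49 CPM (SD, n = 6), with a log2 fold change of 0.24 (SE 0.54, edgeR adjusted p = 0.852). Left without tumours 1 and 5, it was 0.6 (SE 0.4, edgeR adjusted p = 0.336).

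**Figure D4:**
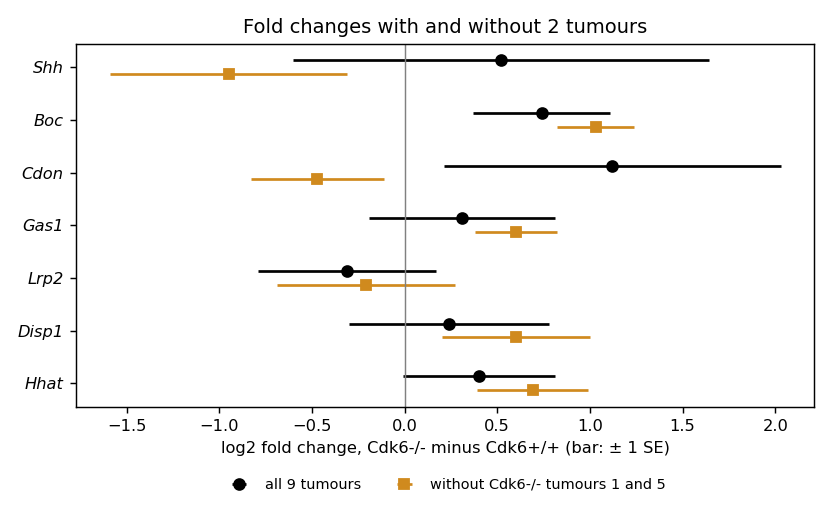
Log2 fold change of each of the 7 genes, Cdk6-/- minus Cdk6+/+, with bars of 1 SE from edgeR; black circles use all 9 tumours and orange squares leave out Cdk6-/- tumours 1 and 5. Shh and Cdon lie on opposite sides of 0 in the 2 fits, and Boc at 1.03 without the 2 tumours is the 1 value past the test.

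Other genes of ligand acylation and release were listed with Hhat and Disp1, 8 in all. None passed with 9 tumours, where 5.19% of all genes did. In the comparison without tumours 1 and 5 there were 2 of 8 that rose and 0 that fell in edgeR (8.12% and 6.14% of all genes). Median log2 fold changes of the 8 were 0.77 with 9 tumours and 0.64 without tumours 1 and 5, against 0.16 and 0.04 over all tested genes. Scube3, a secreted protein of the family that helps ligand release, was at 1.1, 1.29 and 0.959 CPM in Cdk6+/+ tumours 1 to 3 and at 4.92, 4.5, 5.19, 3.71, 2.03 and 1.52 CPM in Cdk6-/- tumours 1 to 6. Every Cdk6-/- tumour was above every Cdk6+/+ tumour, where 15.5% of all tested genes had the groups fully apart in either direction. Its log2 fold change was 1.70 over all 9 (SE 0.49, edgeR adjusted p = 0.078; DESeq2 adjusted p = 0.00383) and 1.74 without tumours 1 and 5 (edgeR adjusted p = 0.0324). Disp3, a relative of Disp1 listed in the table as Ptchd2, rose by 1.56 on the log2 scale without tumours 1 and 5 (edgeR adjusted p = 0.0407), and Disp2 had 0.04. Scube1 had 1.39 (edgeR adjusted p = 0.0807) and Scube2 -0.95 (edgeR adjusted p = 0.251) in that comparison. Hhatl, a relative of Hhat, was at 8.76 CPM in Cdk6-/- tumour 5 and at 0 to 2.08 in the other Cdk6-/- tumours.

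The pathway lists held 42 genes, the 7 included, and none was called in edgeR over 9 tumours, beside 5.19% of all tested genes. Of 40 tested 2 had an unadjusted p under 0.05 and 33 had a positive log2 fold change, where 59.9% of all tested genes did, with a median of 0.36 against 0.16 over all tested genes. DESeq2 called 1 of 41, Scube3, where it called 2887 of 24361 genes in all. Without tumours 1 and 5, 8 of 41 rose and 0 fell, beside 8.12% and 6.14% of all tested genes, with a median of 0.46 against 0.04. In both comparisons the 7 genes had medians of 0.4 and 0.6, with 6 and 4 of 7 positive, and the remaining list genes 0.35 and 0.45. Among the 8 were Boc, Scube3, Disp3, the ciliary Smoothened partners Evc (1.00, adjusted p = 0.0287) and Iqce (0.92, adjusted p = 0.0392), and the transcription factors Gli1 (1.5, adjusted p = 0.0395) and Gli2 (1.04, adjusted p = 0.0365), as log2 fold changes from edgeR. Leaving out Cdk6+/+ tumour 1 or 3 as well gave 0 pathway list genes called, beside 845 of 19130 and 834 of 19097 genes. Leaving out Cdk6+/+ tumour 2 gave 2 of 41 higher, beside 1609 of 19115 genes called. Cdk6-/- tumour 3 gave 1 higher and 1 lower of 40, beside 1744 of 17698. Cdk6-/- tumour 4 gave 5 higher and 1 lower of 40, beside 1997 of 18037. Cdk6-/- tumour 6 gave 5 of 41 higher, beside 2550 of 18435. Cdk6-/- tumour 2 gave 13 higher and 1 lower of 40, beside 4236 of 18157. The fits with fewest and most list genes called were also those with fewest and most genes called.

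The receptor and the transducer next to the co-receptors did not pass in either comparison. Ptch1 was at 663 to 814 CPM in Cdk6+/+ and at 685 to 1440 in Cdk6-/- tumours, with log2 fold changes of 0.37 (edgeR adjusted p = 0.56) and 0.5 (edgeR adjusted p = 0.221) with and without tumours 1 and 5. Smo had 0.28 (edgeR adjusted p = 0.819) and 0.66 (edgeR adjusted p = 0.1). Hhip, a decoy receptor for the ligand, had -0.06 and -0.18. Gli1 was at 73.1 to 128 CPM in Cdk6+/+ and at 54.2, 108, 358, 384, 22.0 and 226 CPM in Cdk6-/- tumours 1 to 6, so tumours 3, 4 and 6 were its highest, as they were for Boc.

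**Figure D5:**
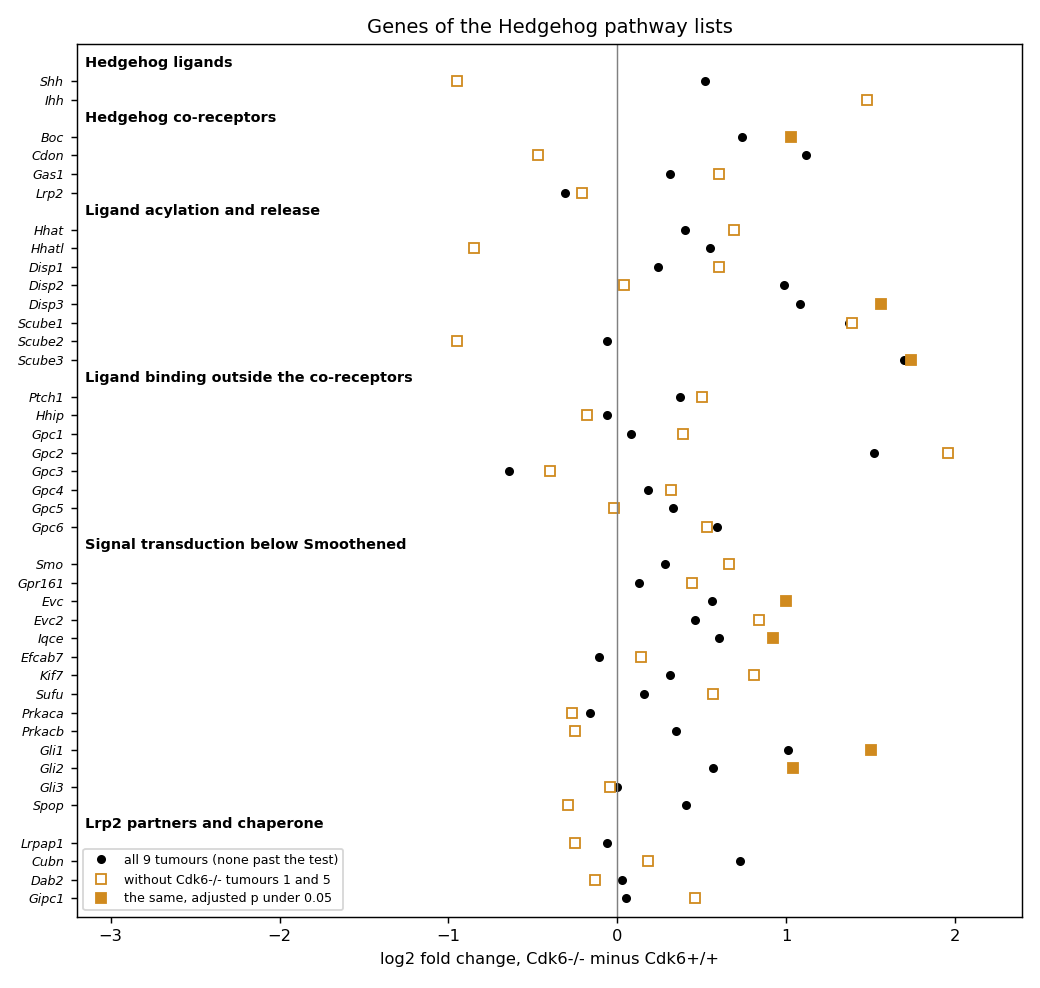
Log2 fold change, Cdk6-/- minus Cdk6+/+, of tested genes from 6 pathway lists; black circles use all 9 tumours, orange squares leave out Cdk6-/- tumours 1 and 5, and filled squares have an edgeR adjusted p under 0.05. The filled squares lie between 0.92 and 1.74.

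The genes whose pattern over the 9 tumours was most like each member were sought among 14498 named genes, by the root mean square (RMS) difference of centred log2 CPM. For Shh, whose own RMS deviation was 1.38, they were Cacnb2, Pls1 and Fam20a, at 0.3 to 0.33, and Cacnb2 was at 59.6 CPM in Cdk6-/- tumour 5 and 6.82 to 11.8 in Cdk6+/+ tumours. For Boc (0.57) they were Zbtb22, Pprc1 and Nfix, at 0.11 to 0.13, with Nfix at 202 to 297 CPM in Cdk6+/+ and 409 to 687 in Cdk6-/- tumours 2, 3, 4 and 6. Those of Cdon (1.17) were Rps6ka1, Rims4 and Garnl3, at 0.23 to 0.28. Those of Gas1 (0.85) were Frrs1, Nfia and Rap2b, at 0.18 to 0.21, and Nfia was at 194 CPM in tumour 5 against 823 or more in the other 8. Disp1 (0.72) had Phc2, Llgl1 and Slc25a39, at 0.14 to 0.18. Hhat (0.46) had Hcfc1, Thoc3 and Tmem231, at 0.18 to 0.19. Lrp2 (0.52) had Nod2, Tor4a and Ctf1, at 0.23 to 0.3, where counting error makes up part of the difference. No gene was nearest to more than 1 member, and none of the nearest was on the pathway lists. The tumours share the libraries and their depth, and these are descriptions without a test.

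The authors' deposited table of their own DESeq2 result lists 761 genes, with adjusted p up to 0.0499. It holds 0 of the 7 genes and 0 of the 42 listed pathway genes. With 761 genes listed beside 47593 rows of the count table, a count of 0 among so few says little.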

How the data were processed

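RNA of whole medulloblastomas was taken up in Trizol and 1 ug of it used for TruSeq libraries, per the labels' protocols. Per the submitters' processing notes, the tools were FastQC, Trimmomatic, HISAT2 and DESeq2 (no versions) and the build GRCm38.p6. Counting tool, strand handling and annotation were not given in the sources used here. What the authors deposited is unnormalized counts (whole numbers, 1 row for each gene, with its position and exon length) and a table of the genes they called with the log2 fold changes, p-values and adjusted p-values of their DESeq2 result.

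Low counts were removed by the filterByExpr function in edgeR 4.0.16 under R 4.3.3, which left 18356 genes. These were scaled by TMM and tested by genotype alone in a robust two-sided quasi-likelihood F test, with Benjamini-Hochberg adjustment over all of them and a threshold of 0.05. Tested alternatives were DESeq2 1.42.0, limma-voom (limma 3.58.1), 2 other scalings, 2 filters, a Ddx3y covariate entered as log2(CPM + 0.1), tumour number as a block, and left-out tumours. The edgeR steps were tested first on simulated data, with less spread between libraries than these tumours have and larger planted changes than those of the members. That check does not show how well changes of the members' size are found here. Centred log2 CPM used a prior count of 2. Figures, promoters and sums were made with Python 3.11.15 (numpy 2.4.6, pandas 2.3.3, scipy 1.17.1).

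The members, lists and choices were made with earlier results of these data known. The lists' counts include 1 gene that is not reported here by name or in the plots. Named beside the members are pathway list genes past the threshold in a printed fit, a set of other pathway genes, checks of the libraries and the 3 genes nearest to each member. The levels of Cdk6, Cacnb2, Nfix and Nfia were picked for printing after their values were seen. Tumours are separate samples by label, and p-values measure the spread between them. Intervals cover counting error only.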

Additional observations from a re-analysis of the deposited data

Results flagged for a closer look

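Of 26 values checked in the 6 Cdk6-/- tumours, 4 had 1 sample far from the others, all in tumour 5. Chance flags about 1 value in 20 only if values are independent and normally distributed, which was not checked for these CPM and shares. Shh was at 3.89 CPM there and at 0.0897 to 0.516 in the other 5. Cdon was at 62.4 CPM against 2.98 to 15.4. Hhatl was at 8.76 CPM against 0 to 2.08. Cdon held 22.8% of the co-receptor TPM against 0.535% to 4.07%. The 4 values come from 1 library, and 2 of them from 1 gene.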

How the results depend on the processing

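With 953 genes called over 9 tumours, the count was 563 with at least 1 CPM in 3 libraries, 66 with the Ddx3y level as a covariate, 2887 by DESeq2, and 2643 without Cdk6-/- tumours 1 and 5 (2664 with RLE and 2604 with upper quartile scaling). Leaving out 1 tumour, from the 9 or from those 7, gave 207 to 4236. Members called were 0 with all 9, 1 without tumours 1 and 5 under each of 3 scalings (Boc), and 0 to 1 with a tumour left out. Pathway list genes called were 0 with all 9, 8 without tumours 1 and 5 under each scaling, 1 by DESeq2 and 0 to 14 with a tumour left out.

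Log2 fold changes that turned sign were uncalled. Shh had -0.95 without tumours 1 and 5 (-0.95 and -0.92 under the other scalings), -3.06 with Ddx3y, -0.65 by limma-voom and -1.26 to 0.8 with a tumour left out. Cdon had -0.47 (-0.47 and -0.46 under the other scalings) and -0.63 to 1.39. Left-out tumours also turned Lrp2 (-0.55 to 0.03), Disp1 (-0.07 to 0.83), Disp2 (-0.06 to 1.15), Scube2 (-1.27 to 0.13) and Hhip (-0.74 to 0.12; 0.61 with Ddx3y). Boc stayed positive in all 28 fits (0.56 to 1.15), Gas1 and Hhat likewise (0.08 to 0.7 and 0.28 to 0.78). Except where left-out tumours or the filter change what is fitted, the cause was not tested.

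Same-numbered tumours had correlations of 0.0473, -0.179 and -0.254 between their deviations from the group means. These values showed no pairing by number, but so few pairs cannot exclude one. The fit with tumour number as a replicate block, for tumours 1 to 3 of each group paired by number, called 822 genes, 0 members and 2 pathway list genes, and gave -0.83 for Shh, -0.16 for Cdon, -0.43 for Disp1 and -0.04 for Smo. The test of members outside the filter on low counts was not run, since all 7 passed it. Counting Boc shares in counts in place of TPM gave a group difference of 1.38 percentage points in place of 4.07. The TPM difference was below the SD of the TPM shares in Cdk6-/- tumours, 6.73 points. The count shares in Cdk6-/- tumours ran from 60.5% to 85.2%. DESeq2 gave no adjusted p for Shh. Depth limits Shh and Lrp2, with 2 to 88 and 7 to 51 counts per library.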
